A study of Mus musculus with 7 samples.

Results

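ATAC-seq measures open chromatin by the sites where Tn5 transposase inserts sequencing adapters, and it was used here to ask how accessibility near transporter genes differed in pancreatic β cells that had lost the chromatin remodellers CHD3 and CHD4. The genes described are carriers of sugars, metals and monocarboxylates, taken by symbol from 11 solute carrier families (Slc2, Slc5, Slc11, Slc16, Slc30, Slc31, Slc39, Slc40, Slc41, Slc45 and Slc50), without Slc2a2, Slc30a8 and Slc16a1. The rule used names only and no measured value. It found 104 regions at 54 genes, among 61288 listed regions that carry 24453 gene symbols. RefSeq holds 71 protein-coding mouse genes under the same rule, and the 17 with no listed region, among them Slc2a1, Slc5a1 and Slc30a1, were not analysed here.

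Male mice of both genotypes were compared, with 3 Chd3/4Δβ libraries (Chd3 fl/fl; Chd4 fl/fl) and 4 Control libraries (Chd3+/+; Chd4+/+). Both groups carried MIP-CreERT, a Cre recombinase under the mouse Ins1 promoter that acts only with tamoxifen, and the R26 LSL-tdTomato reporter, and both were given tamoxifen between 4 and 6 weeks of age. The cells were Tomato-positive cells sorted from islets, and recombination at the reporter does not show recombination at Chd3 or Chd4. An age of 10 weeks is given for mice of both genotypes used for tissue sections, and none for the mice whose cells were sorted here. Whether replicates came from separate mice is not stated in the labels, and p-values reflect only library-to-library spread, which may be technical.

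Solute carriers move small molecules across membranes. GLUT proteins (Slc2) let hexoses pass down their gradient, most Slc5 proteins are driven by sodium, and MCT proteins (Slc16) carry lactate, pyruvate or aromatic amino acids, among others. ZnT proteins (Slc30) move zinc out of the cytosol, into vesicles or out of the cell, and ZIP proteins (Slc39) move it in. β cells are known for fast glucose entry, for insulin granules rich in zinc, and for very low plasma-membrane transport of lactate and pyruvate.

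Library sizes behind the deposited CPM (reads scaled to library size) were 17.8M to 44.0M reads in Chd3/4Δβ and 17.6M to 42.4M reads in Control, with 48.1% to 49.6% of each library in listed regions. Replicates 1 and 2 of Chd3/4Δβ and replicate 4 of Control were the deep libraries. The column names of Control replicates 1 to 3 share a lane tag, that of Chd3/4Δβ replicate 3 holds another, and those of the 3 deep libraries hold none. No source used here ties these tags to sequencing runs. The deep libraries alone, with a single Control library assumed to vary like the others, gave 34 transporter regions higher and 21 lower. Chd3 and Chd4 have no listed region, and their deletion was not checked in these data. Regions of 7 β-cell marker genes, all listed, summed to 401 to 632 CPM in Chd3/4Δβ and 777 to 972 CPM in Control. Markers of other cells were higher in Chd3/4Δβ: α-cell regions (6 of 6 genes) summed to 71.5 to 76.6 CPM in Chd3/4Δβ and 53.7 to 60.6 CPM in Control, and δ-cell regions (2 of 3, without Hhex) to 54.3 to 62.0 CPM in Chd3/4Δβ and 22.4 to 26.6 CPM in Control. Mesenchymal regions (4 of 4) summed to 49.1 to 55.7 CPM in Chd3/4Δβ and 16.1 to 18.5 CPM in Control, and immune regions (2 of 4, without Cd68 and Csf1r) to 18.6 to 37.2 CPM in Chd3/4Δβ and 13.6 to 14.7 CPM in Control. Endothelial regions (3 of 4, without Tie1) summed to 60.8 to 88.9 CPM in Chd3/4Δβ and 45.7 to 48.8 CPM in Control, and the only listed acinar marker of 6 to 1.90 to 2.11 CPM in Chd3/4Δβ and 0.589 to 1.03 CPM in Control. Ductal regions (4 of 4) overlapped between groups, at 89.8 to 131 CPM in Chd3/4Δβ and 86.9 to 94.8 CPM in Control. The part of these differences in the values below was not tested. In bulk libraries, fewer cells with an open site and a less open site in each cell cannot be told apart.

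Calls in either direction needed an adjusted p under 0.05 by edgeR's quasi-likelihood test and a fitted level that differed at least 2-fold, and higher and lower describe Chd3/4Δβ relative to Control. A value with ± that follows a region's CPM is its log2 fold change ± SE. Of the 104 transporter regions, 35 were higher, 18 were lower and 51 were neither. That is 33.7% higher and 17.3% lower, against 37% and 20.4% of all 61288 listed regions, so the shares were near the background. The median log2 fold change was -0.29 over the transporter regions and 0.56 over all listed regions. The authors had chosen every listed region as differing between the groups, which is why 102 of the 104 had an adjusted p under 0.05. All 3 Chd3/4Δβ libraries lay above all 4 Control libraries in 48 regions (49.3% of all listed regions did) and below them in another 48 (38.8% of all), and the groups overlapped in 8. By gene, 27 of 54 had a higher region, against 54.7% of all symbols, and 17 had a lower region, against 34.1%. The calls nearest the limit had log2 fold changes of 1.07 and -1.01, and the nearest regions without a call 0.98 and -0.99.

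How the libraries were scaled moved the balance of higher and lower calls, here and in the whole table. With TMM factors 32 transporter regions were higher and 33 lower (31.6% and 27.9% of all regions), with RLE factors 27 and 37 (29.3% and 31.7% of all), and with cyclic loess 20 and 23 (22.9% and 25.6% of all). Cyclic loess was fitted to log2 CPM rather than to counts, so it differed in more than scaling. With libraries set equal over housekeeping promoters, 40 were higher and 8 lower (43.5% and 14.1% of all). These scalings moved the median log2 fold change of all regions by -0.21 (TMM), -0.31 (RLE), -0.18 (cyclic loess) and 0.22 (housekeeping promoters). The share of transporter calls that were higher was 66.0% with the library sizes used here, 49.2% with TMM, 42.2% with RLE, 46.5% with cyclic loess and 83.3% with housekeeping promoters. The median of the transporter regions was below 0 under each of these.

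**Figure D1:**
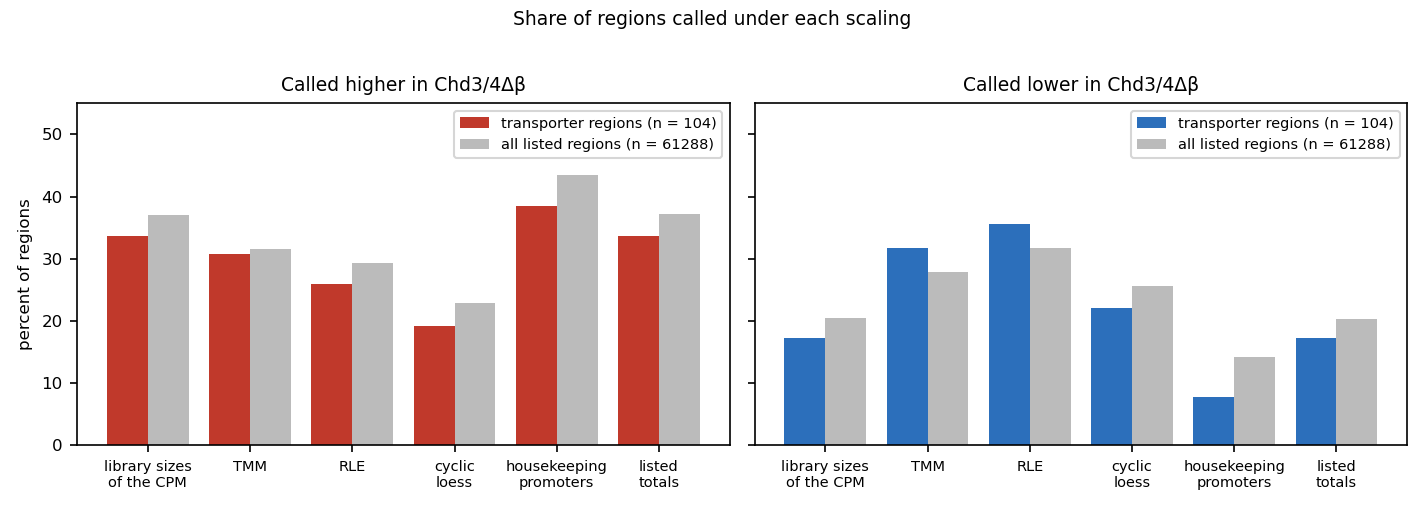
Percent of the 104 transporter regions (coloured bars) and of all 61288 listed regions (grey bars) called higher (left panel) or lower (right panel) in Chd3/4Δβ under 6 scalings. The transporter regions called lower number 8 with housekeeping promoters and 37 with RLE factors, and the grey bars move the same way.

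All 61288 listed regions have more than 1 CPM in at least 3 of the 7 libraries, which limits the weak regions that can be listed. The 21 transporter regions with a mean under 1 CPM in Control had more than 1 CPM in all 3 Chd3/4Δβ libraries and in at most 2 Control libraries, so they were listed only through Chd3/4Δβ. They had to be higher there, and their direction is no result. In 18 of them no Control library passed 1 CPM, so their lack of overlap is no result either. In all, 23 transporter regions had fewer than 3 Control libraries above 1 CPM and so needed Chd3/4Δβ to be listed. Likewise 5 regions had no Chd3/4Δβ library above 1 CPM. They were listed only through Control, and their direction is no result either. Of 20 regions with at least 10 CPM in Control, 2 were higher, 1 was lower and 17 were neither, which is 10% higher and 5% lower, against 1.80% and 8.36% of all 9681 listed regions at that level. Single libraries had as few as 1 read in a weak region, so low values carry a large counting error.

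**Figure D2:**
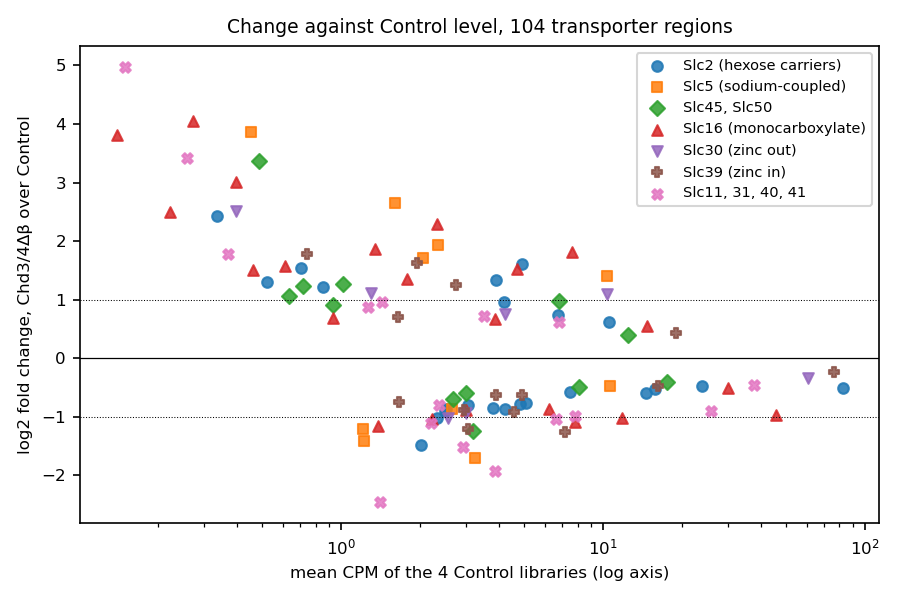
Log2 fold change (Chd3/4Δβ over Control) of each of the 104 transporter regions against its mean CPM in the 4 Control libraries (log axis), with a marker for each family group and dotted lines at a 2-fold difference. The 21 regions under 1 CPM in Control were listed only through Chd3/4Δβ and so lie above 0, and most of the 20 regions with at least 10 CPM lie between the dotted lines.

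By the deposited annotation 17 of the 104 regions were promoters, of which 4 were higher (22.1% of all listed promoter regions were) and 3 lower (8.94% of all). RefSeq promoter windows (250 bases before to 50 after a start site, GRCm38.p6) were matched for 40 of the 54 symbols, and at 9 genes a listed region of the same gene overlapped a window. The windows printed here are those under a called region (Slc16a3 and Slc30a3) and those under the regions that came closest to 2-fold without a call (Slc16a9 and Slc45a3). Capitals mark GC boxes (GGGCGG, bound by SP factors), E-boxes (CACGTG) and metal response element cores (TGCACNC or TGCGCNC, the core bound by MTF1), on either strand, with overlapping matches run together.
Slc16a3: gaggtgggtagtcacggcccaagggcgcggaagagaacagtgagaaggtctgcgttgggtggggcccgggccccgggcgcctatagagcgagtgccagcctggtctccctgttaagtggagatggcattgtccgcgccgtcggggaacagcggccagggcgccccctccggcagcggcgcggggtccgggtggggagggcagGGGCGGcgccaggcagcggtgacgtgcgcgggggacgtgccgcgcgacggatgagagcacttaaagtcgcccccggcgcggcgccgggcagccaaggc
Slc30a3: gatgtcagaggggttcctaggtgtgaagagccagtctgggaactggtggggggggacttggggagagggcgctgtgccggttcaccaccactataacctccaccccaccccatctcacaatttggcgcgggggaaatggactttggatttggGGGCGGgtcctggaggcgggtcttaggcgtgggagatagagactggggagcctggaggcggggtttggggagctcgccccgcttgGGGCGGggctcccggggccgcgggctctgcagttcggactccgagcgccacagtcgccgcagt
Slc16a9: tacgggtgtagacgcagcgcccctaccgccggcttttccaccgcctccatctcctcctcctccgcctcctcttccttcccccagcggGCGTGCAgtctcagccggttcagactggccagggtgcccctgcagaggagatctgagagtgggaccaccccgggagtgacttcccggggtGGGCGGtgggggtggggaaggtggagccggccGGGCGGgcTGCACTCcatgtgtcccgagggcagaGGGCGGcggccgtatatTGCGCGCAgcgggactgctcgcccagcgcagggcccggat
Slc45a3: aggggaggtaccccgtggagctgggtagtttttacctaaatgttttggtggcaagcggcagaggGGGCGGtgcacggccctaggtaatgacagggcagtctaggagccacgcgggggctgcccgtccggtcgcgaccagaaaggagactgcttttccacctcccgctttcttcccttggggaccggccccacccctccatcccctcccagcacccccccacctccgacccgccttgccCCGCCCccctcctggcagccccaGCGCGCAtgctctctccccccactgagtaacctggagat
The windows lie at chr11:120948817-120949116 on the plus strand, chr5:31093478-31093777 on the minus strand, chr10:70245026-70245325 on the plus strand and chr1:131962665-131962964 on the plus strand. Slc16a3 has 1 GC box and Slc30a3 has 2, and neither has a metal response element core. Slc16a9 has 3 GC boxes and 4 matches to the core, 2 of which overlap, and Slc45a3 has 2 GC boxes and 1 core. None of the 4 holds the E-box letters CACGTG. A GC box is in 35.7% of all 32851 RefSeq windows and in 22 of the 47 windows of these genes, a metal response element core in 25.7% and 19 of 47, and an E-box in 7.15% and 6 of 47. A match describes letters only. No RefSeq window used here lay under the lower promoter regions of Slc2a5, Slc30a5 and Slc5a7.

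Monocarboxylate carriers (Slc16) had 11 of 22 regions higher, 4 lower and 7 neither, at 11 genes. That is 50% higher and 18.2% lower, against 37% and 20.4% of all listed regions. The higher regions of Slc16a14, Slc16a4 and Slc16a9 and intron 3 of Slc16a7 were listed only through Chd3/4Δβ. Slc16a3, which encodes the lactate exporter MCT4, rose at both of its promoter regions. The stronger, chr11:120950672-120951369, had 15.2, 14.9 and 9.9 CPM in Chd3/4Δβ, against 4.08, 4.45, 6.17 and 4.08 CPM in Control. All Chd3/4Δβ libraries were above every Control library, and the log2 fold change was 1.52 ± 0.20 (SE, adjusted p = 1.04e-06). The other, chr11:120948623-120949547, over the window printed above, had 6.16, 4.13 and 3.04 CPM in Chd3/4Δβ, against 1.59, 1.9, 2.39 and 1.3 CPM in Control. Again the groups did not overlap (1.35 ± 0.27 SE, adjusted p = 0.000245), though in the shallow libraries alone the log2 fold change was 0.62.

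Slc16a7 encodes MCT2, a carrier with high affinity for pyruvate. Its first exon, chr10:125388525-125389894, had 30.6, 27.4 and 22.7 CPM in Chd3/4Δβ, against 6.3, 7.54, 7.41 and 9.26 CPM in Control. The groups were far apart (1.81 ± 0.16 SE, adjusted p = 4.70e-09), and among the higher regions only the first intron of Slc5a5 had a higher mean in Chd3/4Δβ. A region in intron 1 differed less than 2-fold (0.54 ± 0.14), and one in intron 3 was higher (1.5 ± 0.37) but had -0.03 with cyclic loess.

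Slc16a14 and Slc16a4, which encode MCT14 and MCT5, had regions that were almost closed in Control. The intergenic region 12484 bases upstream of Slc16a14 (chr1:84947275-84947962) had 4.32, 3.82 and 6.13 CPM in Chd3/4Δβ, against 0.113, 0.38, 0.287 and 0.306 CPM in Control, and Control libraries had 2 to 13 reads there (4.06 ± 0.33 SE, adjusted p = 1.52e-09). Intron 7 of Slc16a4 (chr3:107303871-107304488) had 2.95, 3.54 and 2.93 CPM in Chd3/4Δβ, against 0.34, 0.488, 0.43 and 0.33 CPM in Control (3.0 ± 0.31 SE, adjusted p = 4.67e-08). Both regions were listed only through Chd3/4Δβ, so their direction and lack of overlap are no result. Both calls held under all 18 alternatives tried for each region. An intron 8 region of Slc16a4 that also lies in Rbm15, likewise listed only through Chd3/4Δβ, was higher too (1.58 ± 0.31). It lost its call with cyclic loess (0.39). The region 3450 bases upstream of Slc16a11 (MCT11) had 13.8, 12.7 and 7.48 CPM in Chd3/4Δβ, against 2.5, 1.79, 2.68 and 2.36 CPM in Control (2.29 ± 0.22 SE, adjusted p = 1.70e-08), with no overlap.

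Slc16a9 (MCT9) had regions that leaned in both directions. The region over its start site, chr10:70244579-70246497, was the most open of the family, with 22.2, 20.8 and 26.9 CPM in Chd3/4Δβ, against 38.4, 42.1, 47.8 and 54.4 CPM in Control. It lay below Control in every library, and its log2 fold change of -0.98 ± 0.13 (SE, adjusted p = 2.04e-06) was just short of 2-fold. It passed that limit without Chd3/4Δβ replicate 3 (-1.09), Control replicate 1 (-1.05) or Control replicate 2 (-1.01). The region 1829 bases upstream had 3.25, 2.59 and 4.56 CPM in Chd3/4Δβ, against 6.64, 6.89, 6.69 and 4.67 CPM in Control (-0.86 ± 0.23), where Control replicate 4 stood apart from its group, and it passed without Chd3/4Δβ replicate 3 (-1.07). Farther out, 4204 bases upstream, a region with 1 to 5 reads in Control had 1.84, 1.82 and 2.14 CPM in Chd3/4Δβ, against 0.17, 0.0543, 0.239 and 0.0943 CPM in Control (3.81 ± 0.40 SE, adjusted p = 4.91e-08). Inside the gene, 10676 bases from the start, a region had 1.11, 1.23 and 1.07 CPM in Chd3/4Δβ, against 0.624, 0.0543, 0.0956 and 0.118 CPM in Control (2.5 ± 0.47), with Control replicate 1 apart from the other Control libraries. With cyclic loess the upstream call was lost (0.82) and the inner one turned to -0.45. Both of these higher regions were listed only through Chd3/4Δβ.

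Slc16a8, Slc16a12 and Slc16a10 had lower regions near the 2-fold limit. An exon region of Slc16a8 (MCT3, of the retinal pigment epithelium) had 3.93, 3.59 and 3.43 CPM in Chd3/4Δβ, against 7.71, 9.17, 6.55 and 7.94 CPM in Control (-1.09 ± 0.19 SE, adjusted p = 5.81e-05). It missed the limit with housekeeping promoters. A first-intron region of Slc16a12, a creatine carrier, had 1.23, 1.13 and 0.844 CPM in Chd3/4Δβ, against 2.55, 2.28, 1.48 and 2.59 CPM in Control (-1.03 ± 0.30), and its call was lost without Chd3/4Δβ replicate 3 (-0.92), Control replicate 1 (-0.97) or Control replicate 4 (-0.94). Slc16a10 encodes TAT1, a carrier of aromatic amino acids, and 1 of its 3 intron regions was lower, with 4.5, 5.52 and 7.65 CPM in Chd3/4Δβ, against 15, 10.4, 11.3 and 10.5 CPM in Control (-1.02 ± 0.20). That call was lost without Chd3/4Δβ replicate 1 (-0.85), Chd3/4Δβ replicate 2 (-0.98) or Control replicate 1 (-0.89). The promoter of Slc16a5 (MCT6) was not called (-0.89 ± 0.28), but passed without Chd3/4Δβ replicate 2 (-1.05) or Control replicate 4 (-1.07). More Slc16 regions were higher than lower under every scaling tried, from 7 against 5 with cyclic loess to 11 against 0 with housekeeping promoters. These counts include the regions listed only through Chd3/4Δβ.

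Sodium-coupled carriers (Slc5) had 5 of 10 regions higher and 3 lower, at 8 genes (50% and 30%, against 37% and 20.4% of all listed regions). All 5 higher calls held under the 18 alternatives. The largest was at an intergenic region named for Slc5a6, 15982 bases from its start (chr5:31021601-31022424), with 7.81, 8.08 and 5.34 CPM in Chd3/4Δβ, against 0.454, 0.271, 0.43 and 0.66 CPM in Control. The log2 fold change was 3.87 ± 0.28 (SE, adjusted p = 2.47e-10), but the region was listed only through Chd3/4Δβ and its direction is no result. Slc5a6 encodes the carrier of biotin and pantothenate, and the region overlaps no RefSeq gene.

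Slc5a5, the sodium-iodide symporter of the thyroid, was higher at both of its regions. Its first intron (chr8:70891213-70892466) had 28.5, 29.2 and 25 CPM in Chd3/4Δβ, against 9.3, 11.3, 10.7 and 10.3 CPM in Control (1.41 ± 0.14 SE, adjusted p = 2.49e-08). Exon 11 had 7.25, 7.03 and 5.12 CPM in Chd3/4Δβ, against 2.89, 2.5, 1.63 and 1.23 CPM in Control (1.71 ± 0.26). All Chd3/4Δβ libraries were above all Control libraries in both regions, as in 49.3% of all listed regions.

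Slc5a10 and Slc5a11 carry sugars and inositol. The region 1522 bases upstream of Slc5a10, a mannose and fructose carrier of kidney (chr11:61722005-61722691), had 11.7, 9.67 and 8.55 CPM in Chd3/4Δβ, against 1.13, 2.12, 1.86 and 1.32 CPM in Control (2.65 ± 0.23 SE, adjusted p = 2.86e-09). An exon region of the same gene that also lies in Fam83g fell, with 0.908, 0.487 and 1.8 CPM in Chd3/4Δβ, against 3.57, 2.77, 4.06 and 2.57 CPM in Control (-1.7 ± 0.35 SE, adjusted p = 0.000263), though in the shallow libraries alone it had -0.95. The second intron of Slc5a11, a myo-inositol carrier, had 8.27, 9.34 and 9.23 CPM in Chd3/4Δβ, against 2.89, 1.74, 2.63 and 2.14 CPM in Control (1.93 ± 0.21 SE, adjusted p = 7.80e-08), without overlap.

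The other lower Slc5 calls were in weak regions that were listed only through Control, so their direction is no result. Slc5a7, the choline carrier of cholinergic neurons, had 0.591, 0.462 and 0.619 CPM in Chd3/4Δβ, against 1.08, 0.543, 1.15 and 2.07 CPM in Control at its promoter. Its groups overlapped (-1.21 ± 0.38 SE, adjusted p = 0.0105), and the call was lost without Control replicate 4 (-0.75) or Chd3/4Δβ replicate 2 (-1.07, adjusted p = 0.0670). The region named for Slc5a12, a sodium-coupled lactate carrier, lies 57716 bases from its start inside Ano3. It had 0.5, 0.282 and 0.619 CPM in Chd3/4Δβ, against 1.76, 1.03, 1.1 and 0.99 CPM in Control (-1.42 ± 0.36), Control replicate 1 lying apart from its group. Slc5a3, a myo-inositol carrier, and Slc5a9 were not called (-0.86 ± 0.27 and -0.48 ± 0.19). Slc5 had more higher than lower calls under every scaling.

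Facilitative sugar carriers (Slc2) had 6 of 23 regions higher, 2 lower and 15 neither, at 9 genes, and 14 of the 23 had a log2 fold change below 0. The shares were 26.1% higher and 8.7% lower, against 37% and 20.4% of all listed regions. The balance turned with the scaling, to 6 higher and 7 lower with TMM and 4 and 9 with RLE. Slc2a5 encodes the fructose carrier GLUT5, and all 5 of its regions were lower in level in Chd3/4Δβ without overlap (38.8% of all listed regions were). Its promoter region chr4:150137954-150140820 was the most open of the 104, with 59.6, 55.3 and 59.1 CPM in Chd3/4Δβ, against 91.6, 83.1, 85.3 and 70 CPM in Control. The difference was well under 2-fold (-0.51 ± 0.10 SE, adjusted p = 0.000264). Its other promoter region, chr4:150128747-150129073, was the only one called, with 0.5, 0.795 and 0.9 CPM in Chd3/4Δβ, against 2.55, 2.33, 1.82 and 1.37 CPM in Control (-1.48 ± 0.34 SE, adjusted p = 0.00084), and this call was lost in the deep libraries alone, where Control is a single library. That region had no Chd3/4Δβ library above 1 CPM and was listed only through Control, so its direction is no result. The 3 intron regions came to -0.47, -0.59 and -0.78.

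Slc2a13 encodes HMIT, a proton-coupled myo-inositol carrier, and had 3 higher and 1 lower of 5 intron regions. Intron 4 (chr15:91369612-91370395) had 10.4, 8.93 and 9.9 CPM in Chd3/4Δβ, against 5.33, 3.47, 2.96 and 3.79 CPM in Control. The groups were apart (1.33 ± 0.20 SE, adjusted p = 8.01e-06), and the call held under all 18 alternatives. The region at chr15:91398716-91399168 had 1.14, 1.13 and 1.69 CPM in Chd3/4Δβ, against 0.34, 0.868, 0.383 and 0.495 CPM in Control (1.3 ± 0.35; -0.25 with cyclic loess). Its neighbour at chr15:91402838-91403748 had 1.54, 2.44 and 1.8 CPM in Chd3/4Δβ, against 1.3, 0.706, 0.813 and 0.589 CPM in Control (1.22 ± 0.33; 0.46 with cyclic loess), and came just under the limit without Chd3/4Δβ replicate 2 (1.0). The lower region, in intron 3, had 0.863, 1.03 and 1.69 CPM in Chd3/4Δβ, against 2.89, 2.23, 1.82 and 2.36 CPM in Control (-1.02 ± 0.31). It was lost without Chd3/4Δβ replicate 1 (-0.82), Chd3/4Δβ replicate 2 (-0.93) or Control replicate 1 (-0.9). The fifth region was not called (-0.8 ± 0.27). The higher regions at chr15:91398716-91399168 and chr15:91402838-91403748 were listed only through Chd3/4Δβ.

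Slc2a10, Slc2a7 and Slc2a9 each had 1 higher region. The first intron of Slc2a10 (GLUT10; chr2:165510876-165513480) had 17.8, 16.4 and 10.3 CPM in Chd3/4Δβ, against 5.39, 5.21, 4.21 and 4.85 CPM in Control, without overlap (1.6 ± 0.19 SE, adjusted p = 3.13e-07). Intron 8 of Slc2a7 (GLUT7) had 2.11, 1.85 and 1.12 CPM in Chd3/4Δβ, against 0.567, 0.163, 0.383 and 0.236 CPM in Control (2.42 ± 0.38 SE, adjusted p = 1.17e-05; 0.36 with cyclic loess). Intron 7 of Slc2a9, a urate carrier, had 1.82, 2.75 and 1.46 CPM in Chd3/4Δβ, against 0.681, 0.814, 0.669 and 0.66 CPM in Control (1.54 ± 0.32; 0.56 with cyclic loess), where Control replicate 2 lay slightly apart from 3 very close Control values. In all 3 regions the lowest Chd3/4Δβ library was above the highest Control library, as in 49.3% of all listed regions. Those of Slc2a7 and Slc2a9 were listed only through Chd3/4Δβ, so for them this is no result. An intergenic region named for Slc2a7 was not called (-0.86 ± 0.25) but passed without Chd3/4Δβ replicate 1 (-1.02).

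Glucose carriers of neurons, muscle and fat had no call. The region 9291 bases from the start of Slc2a3 (GLUT3, of neurons) had 8.54, 11.2 and 13.3 CPM in Chd3/4Δβ, against 14.9, 15.8, 16.7 and 15.8 CPM in Control (-0.53 ± 0.17). The promoter of Slc2a4 (GLUT4, the insulin-responsive carrier) had 19.9, 16 and 12.4 CPM in Chd3/4Δβ, against 11.2, 10.6, 10.8 and 9.57 CPM in Control (0.62 ± 0.17). Slc2a3 was thus lower and Slc2a4 higher in level in Chd3/4Δβ, each by less than 2-fold. Slc2a12 (GLUT12) had 4 intergenic regions, at -0.91, -0.86, 0.96 and 0.74 from the farthest to the nearest to its start. The first passed 2-fold without Control replicate 1 (-1.02) and the second without Chd3/4Δβ replicate 3 (-1.04). The third passed without Chd3/4Δβ replicate 1 (1.02), Control replicate 1 (1.04) or Control replicate 4 (1.04). Slc2a8 (GLUT8) had 2.09, 2.39 and 4.84 CPM in Chd3/4Δβ, against 6.52, 4.61, 5.31 and 3.98 CPM in Control in its first intron, where Chd3/4Δβ replicate 3 lay within the Control range. The log2 fold change was -0.76 ± 0.27, and -1.18 without that library.

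Slc45 and Slc50 genes had 4 of 12 regions higher and 1 lower (33.3% and 8.33%, against 37% and 20.4% of all listed regions). The largest difference was at a region named for Slc50a1 (SWEET1), chr3:89273763-89274246, with 5.45, 4.67 and 4.11 CPM in Chd3/4Δβ, against 0.737, 0.488, 0.383 and 0.33 CPM in Control. The log2 fold change was 3.36 ± 0.30 (SE, adjusted p = 5.21e-09), but the region lies 3434 bases upstream, inside Efna1. It was listed only through Chd3/4Δβ, so its direction is no result. The promoter region of Slc50a1 itself had 14.7, 14.4 and 10.3 CPM in Chd3/4Δβ, against 16.3, 16.6, 17.1 and 20 CPM in Control (-0.41 ± 0.16). Slc45a4 fell at its transcript end (chr15:73581077-73581805), with 1.36, 1.33 and 1.35 CPM in Chd3/4Δβ, against 2.78, 3.2, 3.4 and 3.37 CPM in Control (-1.24 ± 0.25 SE, adjusted p = 0.000265), and this call held under all 18 alternatives.

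Slc45a4 also had 2 higher introns, both listed only through Chd3/4Δβ, and a region without a call (-0.7). The intron region at chr15:73612107-73612474 had 2.11, 1.77 and 1.12 CPM in Chd3/4Δβ, against 0.908, 0.543, 0.622 and 0.801 CPM in Control (1.24 ± 0.32; 0.15 with cyclic loess). That at chr15:73604241-73604841 had 1.54, 1.28 and 1.07 CPM in Chd3/4Δβ, against 0.737, 0.706, 0.478 and 0.613 CPM in Control (1.07 ± 0.31). It was lost without Chd3/4Δβ replicate 1 (0.92) or Control replicate 3 (0.97), and turned to -0.33 with cyclic loess. The region 1179 bases upstream of Slc45a1, a sugar carrier of brain, had 2.52, 2.85 and 2.03 CPM in Chd3/4Δβ, against 0.964, 0.868, 1.15 and 1.11 CPM in Control (1.27 ± 0.28). It too needed Chd3/4Δβ to be listed, and its call was lost with RLE (0.95) and with cyclic loess (0.90). A first-intron region of Slc45a1 was not called (0.9), and passed without Chd3/4Δβ replicate 2 (1.04), Chd3/4Δβ replicate 3 (1.01) or Control replicate 3 (1.09). Slc45a3 (prostein) was close to a call over the start site printed above, with 15.5, 14.4 and 10.5 CPM in Chd3/4Δβ, against 5.39, 6.57, 7.22 and 7.99 CPM in Control. All Chd3/4Δβ libraries were higher there (0.98 ± 0.18 SE, adjusted p = 9.03e-05), and it passed without Chd3/4Δβ replicate 3 (1.12), Control replicate 3 (1.01) or Control replicate 4 (1.08). Slc45a2, of pigment cells, was not called (-0.6). The 4 higher and 1 lower became 1 and 2 with RLE and 1 and 1 with cyclic loess.

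**Figure D3:**
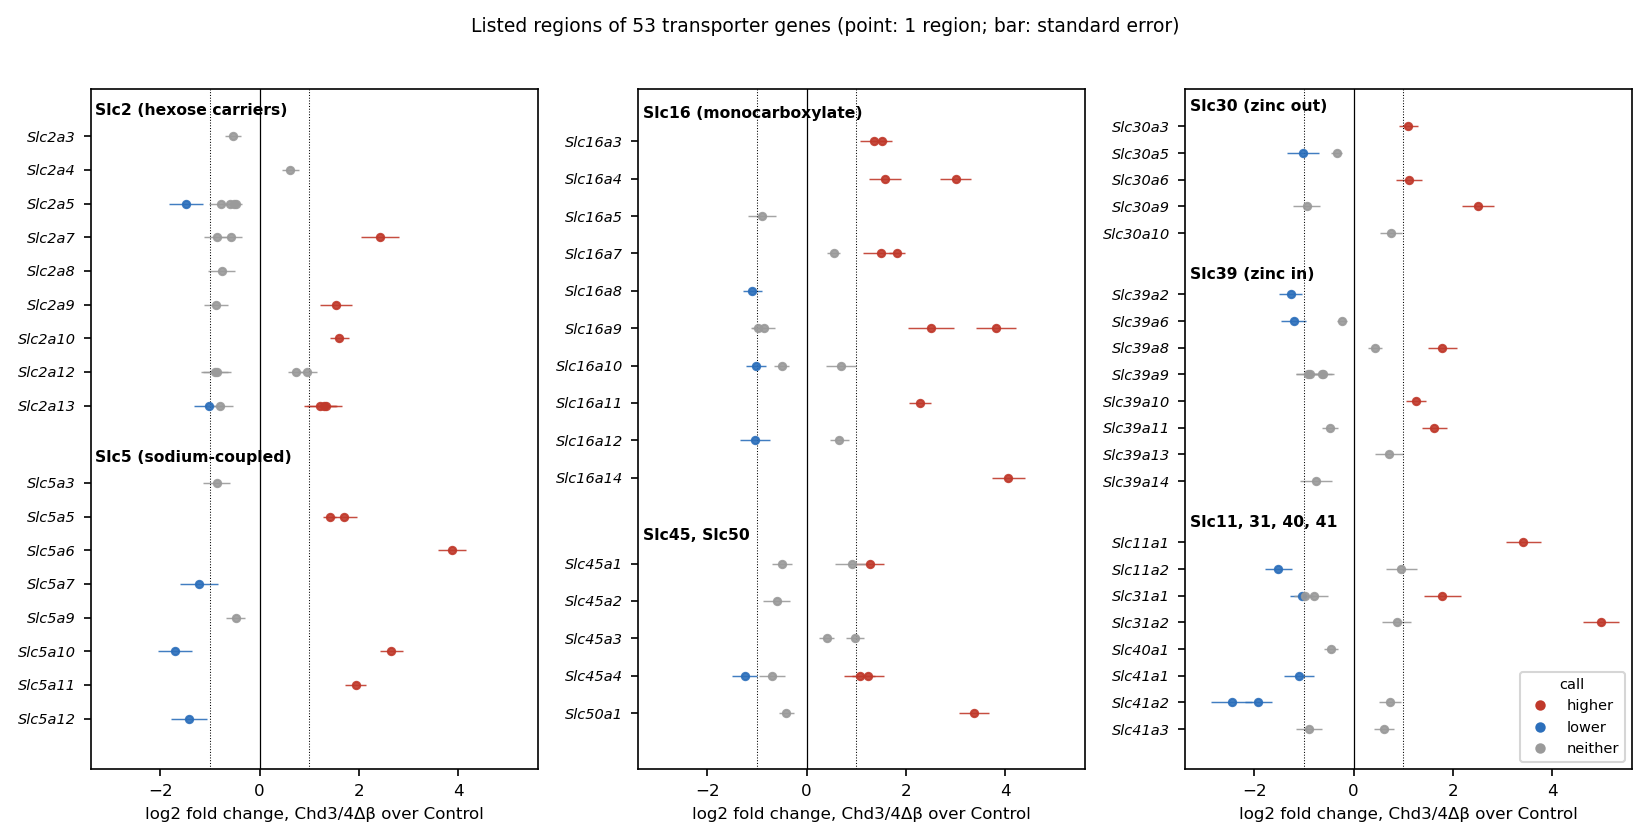
Log2 fold change (Chd3/4Δβ over Control) with its standard error for the 102 listed regions of 53 transporter genes, 1 line per gene and 1 point per region, coloured by call (red higher, blue lower, grey neither), with dotted lines at a 2-fold difference. Slc16 has 10 red points here, all 5 points of Slc2a5 lie below 0, and 4 of the plotted genes have both red and blue points.

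Zinc exporters (Slc30) had 3 of 7 regions higher and 1 lower (42.9% and 14.3%, against 37% and 20.4% of all listed regions). This became 1 higher and 2 lower with TMM or RLE, and 0 of the 4 calls held under all alternatives. The promoter of Slc30a3 (ZnT3, which fills synaptic vesicles with zinc; chr5:31092816-31096461) had 29.7, 22 and 13.9 CPM in Chd3/4Δβ, against 11.6, 10.5, 10.4 and 8.91 CPM in Control. The groups did not overlap (1.1 ± 0.19 SE, adjusted p = 5.85e-05), and Chd3/4Δβ libraries spread widely, the shallow replicate 3 lowest. The call was lost without Chd3/4Δβ replicate 1 (0.81), with TMM (0.89) and with RLE (0.78).

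Slc30a5 and Slc30a6 encode ZnT5 and ZnT6, which work as a pair in the secretory pathway. An inner promoter region of Slc30a5 (chr13:100824109-100824972) had 1.91, 1.08 and 0.619 CPM in Chd3/4Δβ, against 2.33, 3.09, 2.63 and 2.21 CPM in Control, without overlap (-1.01 ± 0.32 SE, adjusted p = 0.00976). It was lost without Chd3/4Δβ replicate 2 (-0.91), Chd3/4Δβ replicate 3 (-0.76) or Control replicate 2 (-0.92). The first exon of Slc30a5 was far more open, with 54.5, 46.5 and 42.4 CPM in Chd3/4Δβ, against 65.5, 57.1, 57.2 and 62.4 CPM in Control, and differed little (-0.34 ± 0.11). A region annotated to a transcript end of Slc30a6 had 2.54, 3.21 and 2.81 CPM in Chd3/4Δβ, against 1.08, 1.41, 1.24 and 1.48 CPM in Control (1.11 ± 0.26; 0.9 with TMM). Slc30a9 is a mitochondrial zinc exporter. The higher region named for it, inside Tmem33 and listed only through Chd3/4Δβ, had 2.27, 2.64 and 1.8 CPM in Chd3/4Δβ, against 0.454, 0.326, 0.43 and 0.377 CPM in Control (2.51 ± 0.32 SE, adjusted p = 9.76e-07). The region within Slc30a9 came to -0.94, and passed 2-fold when Chd3/4Δβ replicate 3 (-1.11) or Control replicate 1 (-1.05) was left out. The promoter of Slc30a10, a manganese exporter, had overlapping groups and no call (0.75 ± 0.22).

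Zinc importers (Slc39) had 3 of 14 regions higher and 2 lower (21.4% and 14.3%, against 37% and 20.4% of all listed regions). These became 3 and 4 with TMM, 2 and 5 with RLE and 3 and 5 with cyclic loess. The promoter of Slc39a10 (ZIP10; chr1:46888175-46889089) had 5.93, 7.18 and 6.53 CPM in Chd3/4Δβ, against 2.78, 3.15, 2.25 and 2.78 CPM in Control, without overlap (1.26 ± 0.21 SE, adjusted p = 2.25e-05; 0.94 with RLE). An intergenic region 49122 bases upstream of Slc39a8 (ZIP8, a zinc, manganese and iron carrier), listed only through Chd3/4Δβ, had 2.54, 2.8 and 2.31 CPM in Chd3/4Δβ, against 0.567, 0.922, 0.717 and 0.754 CPM in Control (1.78 ± 0.29 SE, adjusted p = 2.33e-05). Its promoter differed less, with 24.6, 26 and 27.1 CPM in Chd3/4Δβ, against 16.6, 19.2, 17.6 and 23 CPM in Control (0.43 ± 0.14). Intron 3 of Slc39a11 (ZIP11) had 8.4, 5.64 and 3.94 CPM in Chd3/4Δβ, against 2.21, 1.68, 1.63 and 2.29 CPM in Control (1.62 ± 0.25 SE, adjusted p = 1.20e-05).

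Slc39a2 and Slc39a6 held the lower ZIP regions. The transcript end of Slc39a2 (ZIP2; chr14:51896055-51897156) had 2.38, 2.54 and 4.33 CPM in Chd3/4Δβ, against 6.24, 7.38, 6.5 and 8.53 CPM in Control, without overlap (-1.26 ± 0.23 SE, adjusted p = 7.58e-05). Intron 5 of Slc39a6 (ZIP6) had 1.25, 1.33 and 1.41 CPM in Chd3/4Δβ, against 2.55, 2.93, 3.2 and 3.49 CPM in Control (-1.21 ± 0.26 SE, adjusted p = 0.00045). Its promoter was among the most open regions, with 66, 62.4 and 65.6 CPM in Chd3/4Δβ, against 74.5, 72.1, 73.6 and 83.8 CPM in Control, and differed little (-0.23 ± 0.10). Slc39a9 (ZIP9) had 4 regions, all lower in level without overlap (38.8% of all listed regions were). None was called, at -0.62, -0.64, -0.92 and -0.88. In the first of these Control replicate 2, at 2.82 CPM, lay apart from the other Control libraries. The third passed 2-fold without Chd3/4Δβ replicate 3 (-1.06) or Control replicate 4 (-1.06), and the fourth without Chd3/4Δβ replicate 1 (-1.15) or Control replicate 4 (-1.02). Slc39a14 (ZIP14, a carrier of zinc, manganese and iron) had 1.14, 0.924 and 0.844 CPM in Chd3/4Δβ, against 2.21, 1.03, 1.82 and 1.6 CPM in Control in an intron, with overlapping groups (-0.76 ± 0.32).

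Iron, copper and magnesium carriers (Slc11, Slc31, Slc40 and Slc41) held the largest increase and the largest decrease of the 104 regions, with 3 of 16 higher and 5 lower (5 and 3 with housekeeping promoters). The shares were 18.75% higher and 31.25% lower, against 37% and 20.4% of all listed regions. The largest increase was listed only through Chd3/4Δβ and the largest decrease only through Control, so neither direction is a result. The increase lay 7813 bases upstream of Slc31a2, which encodes the copper carrier CTR2, at chr4:62254513-62254985. Levels there were 4.25, 4.21 and 4.61 CPM in Chd3/4Δβ, against 0.17, 0.217, 0.143 and 0.0707 CPM in Control, with 3 or 4 reads in each Control library. The log2 fold change was 4.97 ± 0.36 (SE, adjusted p = 2.16e-10) and ran from 2.73 to 5.84 over the alternatives. The promoter region of Slc31a2 was not called (0.87 ± 0.29).

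Slc31a1 encodes CTR1, the main copper importer. All 3 of its first-intron regions were lower in level, and 1 was called, with 2.45, 2.82 and 4.61 CPM in Chd3/4Δβ, against 6.81, 7.54, 5.31 and 6.83 CPM in Control (-1.05 ± 0.23). That call was lost without Chd3/4Δβ replicate 1 (-0.87), Chd3/4Δβ replicate 2 (-0.95) or Control replicate 2 (-0.98). The neighbour at -0.99 gained a call without Chd3/4Δβ replicate 2 (-1.13), Control replicate 1 (-1.08) or Control replicate 3 (-1.05). A higher region named for Slc31a1, listed only through Chd3/4Δβ, lies inside Cdc26 and had 1.25, 1.33 and 1.29 CPM in Chd3/4Δβ, against 0.113, 0.651, 0.335 and 0.377 CPM in Control (1.79 ± 0.36; -0.19 with cyclic loess).

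Slc11a1 encodes NRAMP1, a metal pump of macrophage phagosomes. At its transcript end (chr1:74377569-74378111) it had 3.2, 2.95 and 1.97 CPM in Chd3/4Δβ, against 0.227, 0.38, 0.191 and 0.236 CPM in Control (3.42 ± 0.35 SE, adjusted p = 4.52e-08). This region was listed only through Chd3/4Δβ, so its direction is no result. Regions of the immune marker genes were also higher in Chd3/4Δβ, as given above, and their part in this difference was not tested. Slc11a2 encodes DMT1, which brings iron into the cytosol. Its last intron (chr15:100389163-100389849) had 0.908, 1.05 and 1.12 CPM in Chd3/4Δβ, against 2.72, 3.04, 2.82 and 3.09 CPM in Control, without overlap (-1.52 ± 0.27 SE, adjusted p = 5.94e-05). A region upstream of Slc11a2 had overlapping groups and no call (0.96 ± 0.31), and passed without Chd3/4Δβ replicate 3 (1.13), Control replicate 2 (1.2) or Control replicate 3 (1.05).

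Magnesium carriers (Slc41) had 3 of 6 regions lower and 0 higher (20.4% of all listed regions were lower and 37% higher). Slc41a2 fell at 2 introns, of which intron 6 was listed only through Control, so its direction is no result. Intron 6 (chr10:83294676-83295109) had 0.25, 0.128 and 0.506 CPM in Chd3/4Δβ, against 0.908, 1.19, 1.77 and 1.74 CPM in Control, the largest decrease of the 104 (-2.45 ± 0.41 SE, adjusted p = 3.19e-05), though in the shallow libraries alone it was not called. Intron 8 (chr10:83266428-83267162) had 0.886, 0.924 and 1.35 CPM in Chd3/4Δβ, against 3.63, 3.96, 4.69 and 3.27 CPM in Control (-1.92 ± 0.27 SE, adjusted p = 3.55e-06), and held under all 18 alternatives. A region nearer the start of Slc41a2 was higher in level without a call (0.73). Slc41a1 fell in its last intron, with 1.09, 0.77 and 1.29 CPM in Chd3/4Δβ, against 1.76, 2.17, 2.68 and 2.24 CPM in Control (-1.11 ± 0.30), and that call was lost without Chd3/4Δβ replicate 2 (-0.91).

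A single Chd3/4Δβ library weighed on Slc41a3. Its second intron had 10.2, 9.03 and 23.2 CPM in Chd3/4Δβ, against 24.7, 26.4, 26.7 and 25.4 CPM in Control, replicate 3 of Chd3/4Δβ lying close to Control. The log2 fold change was -0.9 ± 0.26 with that library and -1.42 without it. Slc40a1 (ferroportin, the iron exporter) had 21.5, 25.9 and 36.3 CPM in Chd3/4Δβ, against 36.9, 38.9, 37.8 and 37.8 CPM in Control, where replicate 3 again lay nearest to Control (-0.45 ± 0.14).

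**Figure D4:**
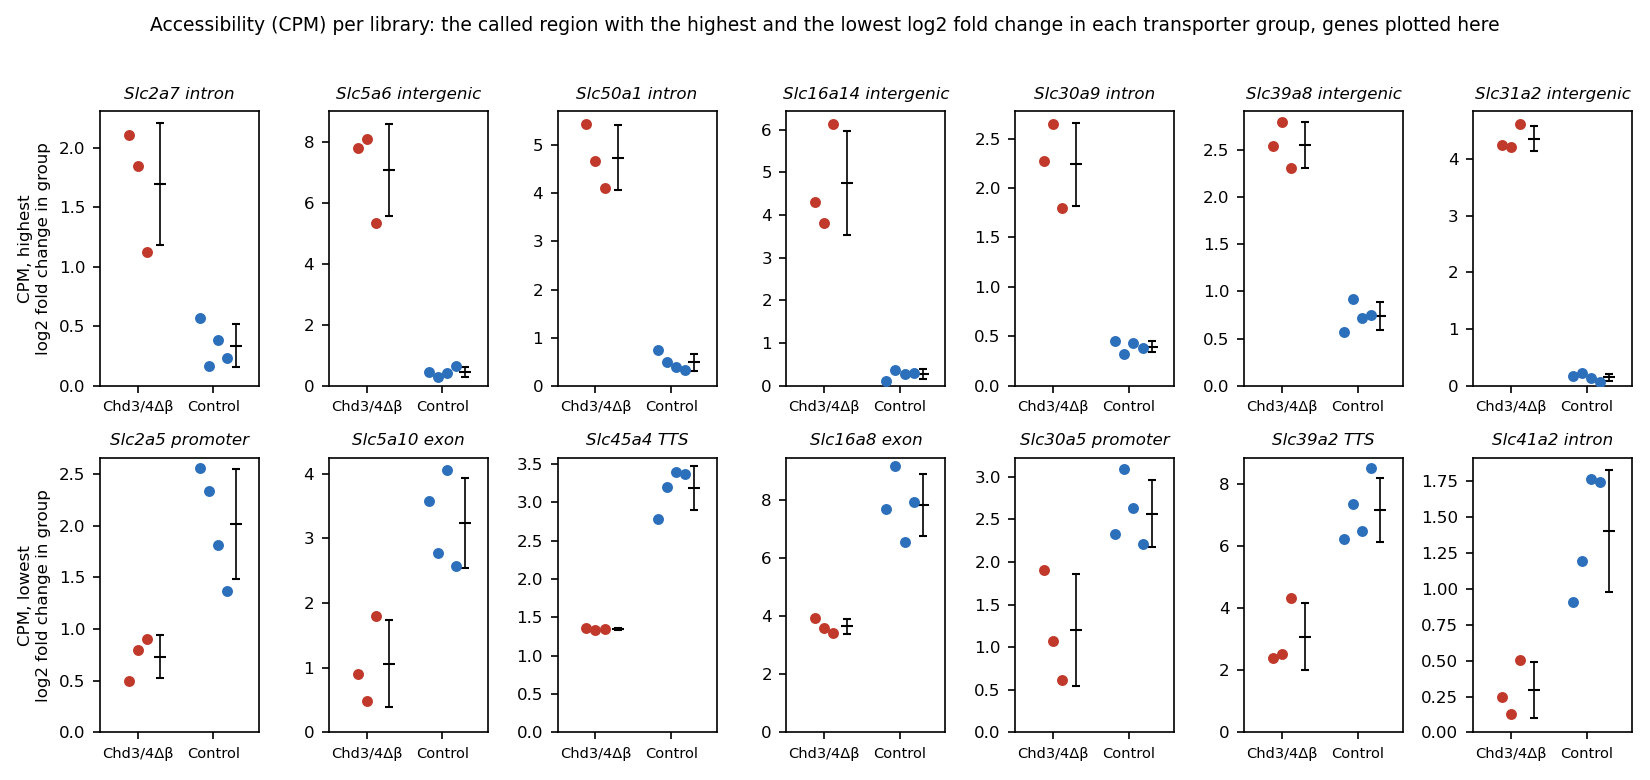
CPM of each library (points; Chd3/4Δβ in red, n = 3, Control in blue, n = 4) with the group mean and SD beside them, for the called region with the highest (upper panels) and the lowest (lower panels) log2 fold change in each family group, among the genes plotted by name, every axis starting at 0. The groups do not overlap in any of these panels. Of all listed regions, 49.3% lay wholly above Control and 38.8% wholly below. The regions in the upper panels were listed only through Chd3/4Δβ, with every Control library under 1 CPM. In the lower panels those of Slc2a5 and Slc41a2 were listed only through Control.

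Of the 104 regions, 80 overlapped the RefSeq span of the gene they are named for, 7 overlapped another gene only and 17 overlapped none. The deposited annotation names a region for its nearest start site, which need not be the gene it acts on. Inside the named gene 24 of 80 regions were higher and 16 lower (30% and 20%, against 30.2% and 20.4% of all listed regions inside their gene). Outside it 11 of 24 were higher and 2 lower (45.8% and 8.33%, against 44.2% and 20.1% of all). Introns held 53 regions, 18 higher and 10 lower (34% and 18.9%, against 35% and 24% of all intron regions). Intergenic space held 18, with 8 higher and 1 lower (44.4% and 5.56%, against 46.9% and 18.5% of all). By gene, 22 of 54 had only higher calls, 12 only lower calls, 5 both (Slc2a13, Slc31a1, Slc45a4 and Slc5a10 among them) and 15 none. Among all symbols, 54.7% had a higher region and 34.1% a lower one. Shares with only higher, only lower, both or no calls were not counted there, so this split has no background. Over listed regions of the other Slc genes, 250 of 680 were higher and 129 lower (36.8% and 19%).

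Genes that work beside these carriers also had calls in both directions. Of 37 metal-handling genes 28 were listed, with 58 regions, 12 higher and 12 lower, 20.7% each (median log2 fold change -0.37, against 0.56 over all listed regions, of which 37% were higher and 20.4% lower). Tfr2, a transferrin receptor, averaged 10.2 CPM in Chd3/4Δβ and 0.621 CPM in Control (4.09 ± 0.26) at its transcript end, and the promoter of Trf (transferrin) 11.2 CPM in Chd3/4Δβ and 3.55 CPM in Control (1.66 ± 0.22). Tfrc, the main transferrin receptor, averaged 0.172 CPM in Chd3/4Δβ and 1.18 CPM in Control (-2.56 ± 0.39) in an intron. The Tfr2 region was listed only through Chd3/4Δβ and the Tfrc region only through Control, so neither direction is a result. Of 15 genes for MCT partners and lactate or pyruvate use 14 were listed, with 57 regions, 18 higher and 16 lower (31.6% and 28.1%; median -0.37). The promoter of Ldha, lactate dehydrogenase A, averaged 10.8 CPM in Chd3/4Δβ and 4.76 CPM in Control (1.18 ± 0.22). Emb, a partner protein of MCTs, had 4 of 10 regions higher and 1 lower. An intron averaged 2.49 CPM in Chd3/4Δβ and 0.126 CPM in Control (4.06 ± 0.40), but was listed only through Chd3/4Δβ, so its direction is no result. The lower region of Emb, annotated as intergenic, averaged 1.27 CPM in Chd3/4Δβ and 5.7 CPM in Control (-2.23 ± 0.29). Of 22 genes for sugar entry and its first steps 19 were listed, with 51 regions, 18 higher and 10 lower (35.3% and 19.6%; median 0.54). The promoter of Hk2, hexokinase 2, averaged 21.2 CPM in Chd3/4Δβ and 5.89 CPM in Control (1.82 ± 0.19). Galk2, galactokinase 2, had 1 of 4 regions higher and 3 lower, and an exon averaged 1.66 CPM in Chd3/4Δβ and 4.87 CPM in Control (-1.61 ± 0.26).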

How the data were processed

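ATAC-seq libraries of sorted β cells, 3 Chd3/4Δβ and 4 Control, were grouped by their labels. The authors deposited read counts per region of 1 merged region set, with CPM values and their own log2 fold changes, p-values and FDR, for 61288 regions with FDR under 0.05 out of 109675 tested, each with more than 1 CPM in at least 3 libraries. The aligner, peak caller, counting tool and any Tn5 shift are not given in the sources used here. Deposited fold changes were not used, and the authors' p-value and FDR columns served only to recover the number of regions tested. The other deposited files, subsets or summaries of this table, were not used.

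Counts were tested with edgeR 4.0.16 (R 4.3.3; quasi-likelihood F-test, robust, genotype as the only term). Library sizes were those behind the deposited CPM, p-values were adjusted by Benjamini-Hochberg over 109675 regions, and a call needed an adjusted p under 0.05 and at least 2-fold. SE is the log2 fold change divided by the square root of F. Alternatives were TMM, RLE, cyclic loess (limma 3.58.1), listed totals, housekeeping promoters, DESeq2 1.42.0, a mean CPM of at least 1, a depth term, deep or shallow libraries alone, a replicate block, each library left out, and other call limits. Cyclic loess was fitted to log2 CPM with a prior count of 2, and the other fits to counts. The edgeR fit was tested on simulated data.

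The submitters' notes name GRCm39, but 74.8% of 4494 matched promoter regions lay within 2000 bases of a RefSeq GRCm38.p6 start, so coordinates were read as GRCm38 and none converted. The naming rule took up to 3 called regions with the highest and up to 3 with the lowest log2 fold change in each group (1 per gene and direction, no overlap of libraries), every called promoter, the region nearest the start of 16 chosen transporters, and all regions of the genes with most regions (7 genes with at least 4, because of ties). Other members named were chosen after their values were seen. Values of 1 carrier gene and of 1 gene in a related list are not reported here, though the counts include them. The members and lists were chosen with earlier results of these data known.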

Additional observations from a re-analysis of the deposited data

Results flagged for a closer look

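In 68 sets of 4 Control values, Dixon's test at its 95% critical value marked a single library as far from the others in 5, and chance marks about 1 in 20. In the upstream region of Slc16a9 at position 70243063 the lowest was Control replicate 4, at 4.67 CPM, and in the intron region of Slc16a9 at 70255560 the highest was Control replicate 1, at 0.624 CPM. In the region named for Slc5a12 the highest was Control replicate 1, at 1.76 CPM. In the intron of Slc2a9 at 38435931 the highest was Control replicate 2, at 0.814 CPM. In the intron of Slc39a9 at 80658548 the lowest was Control replicate 2, at 2.82 CPM.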

How the results depend on the processing

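Against 35 regions higher and 18 lower, cyclic loess gave 20 higher and a limit of 4-fold (log2 of 2) gave 12 higher and 1 lower. Lower regions numbered 37 with RLE, 33 with TMM, 8 with housekeeping promoters and 52 with no fold limit. Leaving out 1 library at a time gave 34 to 38 higher and 14 to 23 lower, the 23 without Chd3/4Δβ replicate 3. With cyclic loess 5 higher regions had a negative log2 fold change: Slc31a1 at 62393050 (-0.19), Slc16a9 at 70255560 (-0.45), Slc2a13 at 91398716 (-0.25), Slc45a4 at 73604241 (-0.33) and Slc16a7 at 125337748 (-0.03). The cause was not tested. No region called one way was called the other way under any alternative. Of 53 calls, 21 held under all 18 alternatives, 18 higher and 3 lower. Those of Slc11a1, Slc31a2, Slc16a14, Slc16a4, Slc5a6, Slc50a1 and Slc39a8 were in regions listed only through Chd3/4Δβ, so their direction is no result. The share of calls that held was not counted over all listed regions. Same-numbered libraries did not deviate together (correlations 0.068, -0.031 and -0.016), so replicate numbers do not pair the samples, and a replicate block gave 36 higher and 22 lower, of which 34 and 16 were shared with the calls above. Deep libraries alone gave 34 higher and 21 lower with a single Control library, and shallow libraries alone 29 higher and 13 lower with a single Chd3/4Δβ library, each assumed to vary like the others. Regions with few reads limit what weak sites can show.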
